A study of Rattus norvegicus with 8 samples.

Results

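The genes described here are 27 rat genes of the mevalonate and sterol pathway and of its control by SREBP2 (sterol regulatory element binding protein 2). They were chosen by name, as genes of known place in the pathway, from the probes of an expression array. Earlier results of these data were known at that choice, so the counts below describe these genes only. They are read step by step from acetyl-CoA to cholesterol. Of the 27 genes, 25 had a probe under that name in the array files, and Acat2 and Sc5d, filed under the older names Acat3 and Sc5dl, were reached through RefSeq. The array files hold 26204 different gene names. The 27 genes had 32 probes among 30350 usable probes, and 31 of the 32 were among the 25303 probes tested. Each gene is represented by its brightest probe. On each of the 8 arrays all 27 of these probes passed the scanner's call of well above background.

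The mevalonate pathway builds acetyl-CoA into mevalonate and then into isoprenoid units. Farnesyl diphosphate is the branch point from which cells make squalene, lanosterol and cholesterol, and also the isoprenoids used for protein prenylation, dolichol and coenzyme Q. When sterols are scarce in the endoplasmic reticulum, the escort protein Scap carries SREBP2 to the Golgi, where 2 proteases release the part that enters the nucleus and activates the genes of the pathway. When sterols are plentiful, Insig proteins hold Scap back. In the ovary cholesterol is also the starting material of the steroid hormones, and steroid-producing cells take it from lipoproteins, from stored esters or from their own synthesis.

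Ovary RNA was hybridised to Agilent arrays of rat genes in 1 colour. The titles label 4 arrays as untreated controls and 4 as treated with PMSG (pregnant mare serum gonadotropin, a hormone preparation that acts mainly like follicle-stimulating hormone). Female rats received 50 IU of PMSG at an age of 26 days, in 0.2 ml of an albumin and phosphate buffer. Control rats received the same volume of buffer alone, per the labels by injection under the skin. Ovaries were collected after 48 h, at 28 days of age, and 500 ng of total RNA per sample was primed with oligo-dT and labelled with Cy3. The rats were immature, so the comparison asks how a gonadotropin injection alters ovarian transcripts in animals of that age. The labels give no strain and do not state whether each array holds 1 animal or a pool, so the p-values below measure only the spread between these samples. Because whole ovaries were used, fewer cells of a type and less RNA per cell cannot be told apart.

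Every level is the log2 processed signal minus that array's 75th percentile, and every difference is PMSG minus control on that log2 scale. The 75th percentile of signal lay between 769 and 1103 on the 8 arrays, and between 80.8% and 84.6% of probes were well above background. Tests are limma's moderated tests, with p-values adjusted by the Benjamini-Hochberg method across the 25303 tested probes. A gene is called where the adjusted p is under 0.05. The 4 arrays per group limit the precision of every value. Across all tested probes the median difference was 0.11. Depending on the scaling it lay between -0.05 and 0.11, so differences of that size carry no direction.

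The group labels need care. Genes that gonadotropin is generally known to raise in the ovary were lower in the arrays labelled PMSG. Lhcgr, the luteinising hormone receptor, differed by -1.93 (SE 0.27, limma adjusted p = 0.00114). Star and Cyp11a1, which move cholesterol into mitochondria and cleave its side chain, differed by -2.75 (SE 0.54, limma adjusted p = 0.00541) and -3.36 (SE 0.31, limma adjusted p = 0.000232). Amh, anti-Mullerian hormone of small growing follicles, was higher by 3.03 (SE 0.29, limma adjusted p = 0.000261). The groups are therefore written as arrays labelled control and arrays labelled PMSG throughout, shortened to control arrays and PMSG arrays, and each direction below depends on those labels.

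The transcripts of the pathway were lower in the arrays labelled PMSG at nearly every step. Of the 27 genes, 23 were called, all 23 lower, and 20 of them were at least 2-fold lower. Over all tested probes, 34.2% were called in either direction, 16.6% were called lower, and 4.60% were called and at least 2-fold lower. No PMSG value fell within the range of the controls for 23 of the 27 genes, and the groups were likewise apart for 36.6% of all tested probes. The median difference of the 27 genes was -1.85. The 4 genes that were not called were Ggps1, Insig2, Mbtps1 and Mbtps2, none of which encodes an enzyme between squalene and cholesterol.

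**Figure D1:**
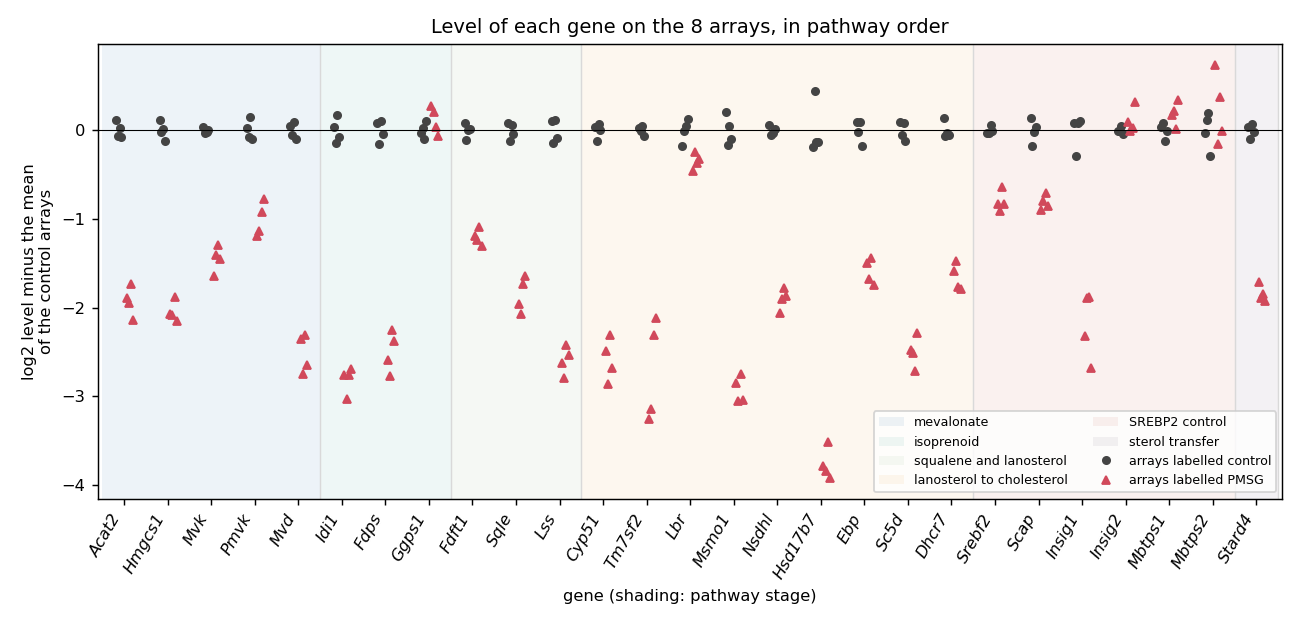
Level of each of the 27 genes on every array, as log2 level minus the mean of the 4 control arrays, with genes in pathway order and shading by stage. Circles are arrays labelled control and triangles are arrays labelled PMSG. The triangles lie below all circles for 23 genes, and the ranges of triangles and circles overlap for Ggps1, Insig2, Mbtps1 and Mbtps2.

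The arrays of a group gave much the same picture. Relative to the control mean, the median of the 27 genes was 0.05, -0.06, 0.05 and -0.04 on control arrays 1 to 4. On PMSG arrays 1 to 4 it was -1.89, -1.90, -1.76 and -1.87. PMSG array 3 held the highest PMSG value for 15 of the 27 genes, and control array 2 the lowest control value for 13. The SD between arrays had a median of 0.09 over the 27 genes in controls and 0.15 in PMSG arrays, where over all tested probes it was 0.16 and 0.27.

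The first stage makes mevalonate and activates it with phosphate. All 5 genes of this stage were lower in PMSG arrays, with a median difference of -1.93. Mvd, the decarboxylase that turns activated mevalonate into isopentenyl diphosphate, differed most within the stage. Mvd stood at 3.45, 3.35, 3.49 and 3.30 on control arrays 1 to 4 and at 1.04, 0.65, 1.09 and 0.74 on PMSG arrays 1 to 4. All PMSG values lay over 2 log2 units below the lowest control value. The difference was -2.52 (SE 0.13, limma adjusted p = 2.32e-05), which is 5.72-fold lower (probe at chr19:52722404-52722463, rn4).

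Hmgcs1 encodes the cytosolic synthase that joins acetoacetyl-CoA to a further acetyl-CoA. Its levels were 6.55, 6.42, 6.45 and 6.31 on the control arrays and 4.36, 4.35, 4.55 and 4.28 on the PMSG arrays, with the groups far apart. It differed by -2.04 (SE 0.10, limma adjusted p = 2.30e-05), or 4.13-fold (chr2:51754514-51754573). Acat2 encodes the cytosolic thiolase that makes acetoacetyl-CoA. Its brightest probe read 4.30, 4.12, 4.21 and 4.10 on the control arrays and 2.29, 2.23, 2.45 and 2.04 on the PMSG arrays, again without overlap. The difference was -1.93 (SE 0.11, limma adjusted p = 4.09e-05; chr1:41940014-41940073).

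The 2 kinases of the stage were also called lower. Mvk, mevalonate kinase, differed by -1.45 (SE 0.10, limma adjusted p = 7.26e-05), from 0.17 ± 0.03 to -1.27 ± 0.14 (SD, n = 4 each). Pmvk, phosphomevalonate kinase, was the enzyme closest to the 2-fold limit, at -1.01 (SE 0.12, limma adjusted p = 0.000628), from 2.29 ± 0.11 to 1.28 ± 0.19 (SD, n = 4 each). The PMSG arrays still lay below every control array for both kinases.

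The next stage makes and extends the isoprenoid units, with one branch toward sterols and another toward longer isoprenoids. Idi1, the isomerase that prepares the starter unit for chain building, was 7.01-fold lower. Idi1 read 5.51, 5.32, 5.64 and 5.39 on the control arrays and 2.71, 2.43, 2.71 and 2.78 on the PMSG arrays. The groups were separated by over 2.5 log2 units, and the difference was -2.81 (SE 0.12, limma adjusted p = 1.38e-05; chr17:72557223-72557282). Only 0.273% of all tested probes had a difference as low.

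Fdps, farnesyl diphosphate synthase, supplies the substrate of squalene synthesis. Fdps read 5.06, 4.82, 5.08 and 4.93 on the control arrays and 2.38, 2.21, 2.72 and 2.60 on the PMSG arrays. PMSG array 3 was the highest of its group and still lay far below the controls. The difference was -2.50 (SE 0.13, limma adjusted p = 3.08e-05; chr2:181170192-181170336). Ggps1, geranylgeranyl diphosphate synthase, adds a further unit to farnesyl diphosphate and leads away from sterols to protein prenylation. Ggps1 read -1.19, -1.13, -1.26 and -1.05 on the control arrays and -0.88, -0.94, -1.12 and -1.21 on the PMSG arrays. These groups overlapped, and the difference of 0.12 (SE 0.11, limma adjusted p = 0.412) did not exceed the spread between arrays (chr17:59470787-59470846).

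Both Fdps probes with different sequences are shown because they measured a similar difference:
Fdps brighter probe: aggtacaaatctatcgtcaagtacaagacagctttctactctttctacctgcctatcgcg
Fdps second probe: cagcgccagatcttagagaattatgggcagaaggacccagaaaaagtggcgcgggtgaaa
The second probe differed by -2.35 (SE 0.14, limma adjusted p = 4.60e-05). The array files place it 3927254 bases from the first on chromosome 2 of rn4, although the RefSeq gene spans 9625 bases. Signal from near-identical gene copies is therefore uncertain for Fdps.

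Squalene and lanosterol are made by 3 enzymes, and all 3 transcripts were lower in PMSG arrays, with a median difference of -1.85. Lss, the cyclase that folds oxidised squalene into lanosterol, differed most. Lss read 2.23, 1.99, 2.25 and 2.04 on the control arrays and -0.50, -0.67, -0.29 and -0.41 on the PMSG arrays. No PMSG array came near a control array, and the difference was -2.59 (SE 0.12, limma adjusted p = 1.69e-05; chr20:12507646-12507705), or 6.03-fold.

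Sqle, the epoxidase that oxidises squalene and a known point of flux control, read 4.34, 4.14, 4.32 and 4.21 on the control arrays and 2.29, 2.18, 2.51 and 2.61 on the PMSG arrays. It was 3.61-fold lower, a difference of -1.85 (SE 0.12, limma adjusted p = 6.13e-05; chr7:96111693-96111752). Fdft1, squalene synthase, makes the first committed sterol precursor. Its levels were 3.15, 2.95, 3.06 and 3.07 on the control arrays and 1.87, 1.82, 1.96 and 1.75 on the PMSG arrays. Fdft1 had the smallest difference of the 3, at -1.20 (SE 0.09, limma adjusted p = 1.08e-04; chr15:42425389-42425448), with groups that did not overlap.

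The stage from lanosterol to cholesterol removes methyl groups and moves and reduces double bonds. All 9 genes of this stage were called lower in PMSG arrays, 8 of them at least 2-fold, and their median difference was -2.50. The largest difference of all 27 genes was that of Hsd17b7, which encodes a ketoreductase of sterol demethylation that can also act on estrogens. Hsd17b7 read 2.13, 2.76, 2.19 and 2.18 on the control arrays and -1.48, -1.53, -1.20 and -1.61 on the PMSG arrays. Control array 2 stood above the other controls, and the PMSG arrays all lay over 3 log2 units below any control. The difference was -3.77 (SE 0.17, limma adjusted p = 1.69e-05; chr13:85776080-85776139), or 13.6-fold, and 0.115% of all tested probes had one as low. Without control array 2 it was -3.62.

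Msmo1, the sterol methyl oxidase of the same demethylation complex, read 6.89, 6.51, 6.72 and 6.58 on the control arrays and 3.82, 3.62, 3.92 and 3.62 on the PMSG arrays. The groups were far apart, with a difference of -2.93 (SE 0.12, limma adjusted p = 1.38e-05; chr16:26716174-26716233), or 7.60-fold. Nsdhl, the dehydrogenase that acts between these 2 enzymes, was 3.74-fold lower (-1.90, SE 0.09, limma adjusted p = 2.32e-05). Thus all 3 genes of the demethylation complex were called lower.

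The promoters of Hsd17b7 and Msmo1, the genes with the largest differences, and of Nsdhl are shown because each holds several copies of the box bound by NF-Y, a factor known to work beside SREBP2. The capitals mark CCAAT or its reverse complement ATTGG. Each runs 5′ to 3′ on the gene's strand from 250 bases before to 50 bases after the RefSeq start, in GRCr8:
Hsd17b7 promoter, chr13:84722705-84723004, strand -: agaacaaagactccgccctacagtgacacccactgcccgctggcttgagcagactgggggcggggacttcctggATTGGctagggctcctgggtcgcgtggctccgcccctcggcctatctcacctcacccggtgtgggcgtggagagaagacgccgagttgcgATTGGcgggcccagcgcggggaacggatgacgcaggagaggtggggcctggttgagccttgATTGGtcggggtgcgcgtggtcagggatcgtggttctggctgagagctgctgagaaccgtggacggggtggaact
Msmo1 promoter, chr16:29746863-29747162, strand +: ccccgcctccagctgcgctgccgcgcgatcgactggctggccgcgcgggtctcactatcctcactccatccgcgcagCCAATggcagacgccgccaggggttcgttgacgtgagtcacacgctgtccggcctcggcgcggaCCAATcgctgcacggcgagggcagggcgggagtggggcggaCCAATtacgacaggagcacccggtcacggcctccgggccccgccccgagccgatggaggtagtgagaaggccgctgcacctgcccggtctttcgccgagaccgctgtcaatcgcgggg
Nsdhl promoter, chrX:155817110-155817409, strand +: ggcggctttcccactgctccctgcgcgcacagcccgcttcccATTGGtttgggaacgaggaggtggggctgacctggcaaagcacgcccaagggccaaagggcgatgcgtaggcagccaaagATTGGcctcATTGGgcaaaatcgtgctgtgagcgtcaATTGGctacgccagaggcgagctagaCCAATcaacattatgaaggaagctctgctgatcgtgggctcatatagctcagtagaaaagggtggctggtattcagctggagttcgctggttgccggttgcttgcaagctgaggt
Hsd17b7 and Msmo1 held 3 matches each and Nsdhl held 5. The share of all promoters with that many copies was not counted. Cyp51, Acat2 and Dhcr7, which were 6.0-, 3.8- and 3.15-fold lower, held 0 matches.

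The reduction of the double bond left by the demethylase Cyp51 can be made by 2 proteins, Tm7sf2 and Lbr. Tm7sf2, the sterol reductase of the endoplasmic reticulum, read 2.31, 2.27, 2.33 and 2.21 on the control arrays and -0.98, -0.87, -0.03 and 0.16 on the PMSG arrays. PMSG arrays 1 and 2 were lower than PMSG arrays 3 and 4, so Tm7sf2 had the widest spread among PMSG arrays of the 27 genes (SD 0.58, n = 4). Its difference was -2.71 (SE 0.26, limma adjusted p = 0.000253; chr1:208700771-208700830). Lbr, the lamin B receptor of the inner nuclear membrane, carries a reductase domain of the same kind.

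Lbr read -4.40, -4.23, -4.17 and -4.09 on the control arrays and -4.68, -4.47, -4.59 and -4.54 on the PMSG arrays, and the groups stayed just apart. It was 1.27-fold lower (-0.34, SE 0.10, limma adjusted p = 0.0309). This call was the weakest of the 23. It was lost without control array 2, 3 or 4 (limma adjusted p = 0.0745, 0.0766 and 0.0889) and without PMSG array 1 or 3 (0.0787 and 0.0563), and under normexp background correction (-0.10, limma adjusted p = 0.440). The Lbr probe was also dim, with a mean processed signal of 56.2 in controls and 40.4 in PMSG arrays.

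The other 4 genes of the stage differed by at least 3-fold. Cyp51, lanosterol demethylase, was 6.0-fold lower (-2.58, SE 0.13, limma adjusted p = 2.64e-05). Sc5d, the desaturase that introduces a ring double bond, was 5.66-fold lower (-2.50, SE 0.12, limma adjusted p = 1.92e-05). Dhcr7, the reductase that yields cholesterol in the last step of one branch, was 3.15-fold lower (-1.65, SE 0.11, limma adjusted p = 6.04e-05), and Ebp, the isomerase that shifts the ring double bond, 3.01-fold (-1.59, SE 0.11, limma adjusted p = 7.90e-05). For each of these 4 genes every PMSG array lay below every control array.

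**Figure D2:**
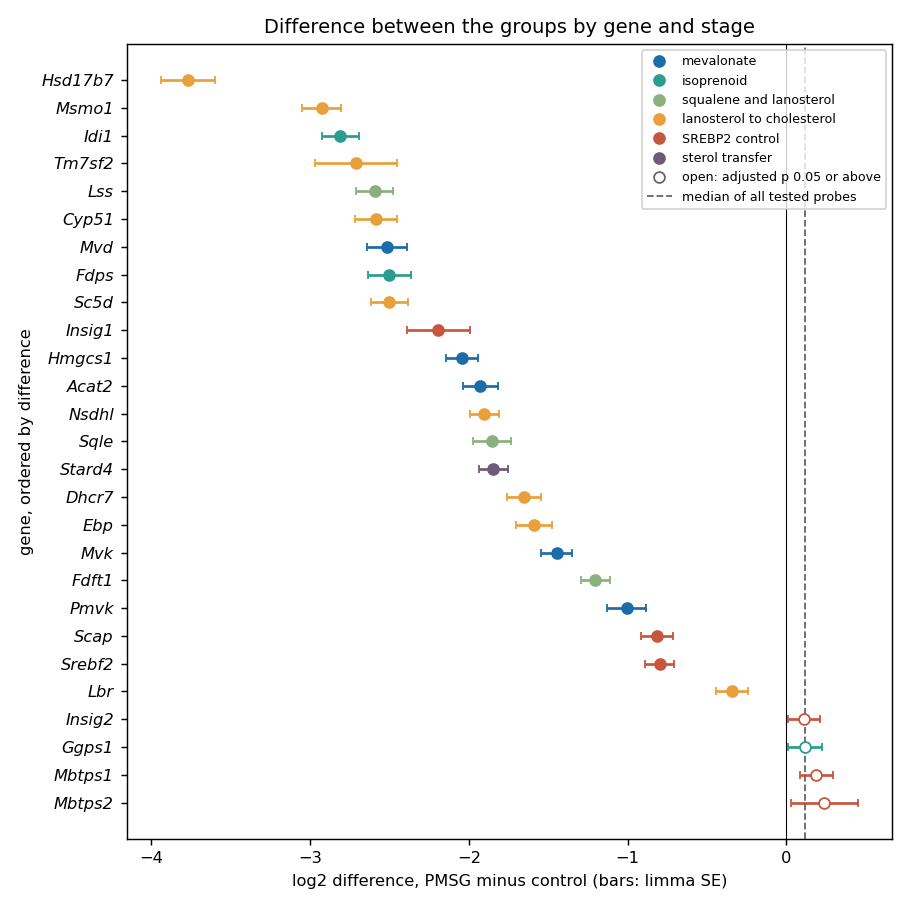
Difference between the groups for each of the 27 genes, as log2 level of PMSG minus control arrays, ordered by size and coloured by pathway stage. Bars are the standard errors from limma, open symbols have an adjusted p of 0.05 or above, and the dashed line is the median of all tested probes, 0.11. Hsd17b7 lies farthest left at -3.77, and the 4 open symbols lie near the dashed line.

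Of the 6 genes of SREBP2 control, 3 were called lower and 3 were not called, and the median difference was -0.34. Insig1 was the one at least 2-fold lower. Srebf2, which encodes SREBP2 itself, read 2.35, 2.35, 2.44 and 2.37 on the control arrays and 1.55, 1.47, 1.75 and 1.55 on the PMSG arrays. Its groups were well apart, and the difference was -0.80 (SE 0.09, limma adjusted p = 0.00052; chr7:120580150-120580209), or 1.74-fold.

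Scap, the sterol-sensing escort of SREBP2, read 3.16, 2.84, 3.00 and 3.05 on the control arrays and 2.12, 2.21, 2.31 and 2.15 on the PMSG arrays. It was 1.76-fold lower, at -0.81 (SE 0.10, limma adjusted p = 0.000698; chr8:114761108-114761167). Insig1, an anchor of Scap in the endoplasmic reticulum and a known SREBP target itself, read 3.00, 2.63, 3.00 and 3.02 on the control arrays and 0.59, 1.02, 1.03 and 0.23 on the PMSG arrays. Control array 2 was the lowest control and still stood above every PMSG array. The difference was -2.19 (SE 0.20, limma adjusted p = 0.000208; chr4:2578292-2578348), or 4.57-fold, and -2.29 without control array 2.

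Insig2, the second anchor, read -1.84, -1.83, -1.77 and -1.87 on the control arrays and -1.73, -1.83, -1.80 and -1.51 on the PMSG arrays. The groups overlapped and the difference was 0.11 (SE 0.10, limma adjusted p = 0.415; chr13:33333061-33333298). A second probe 1841 bases away gave 0.17 (SE 0.14, limma adjusted p = 0.358), also without a call.

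The 2 proteases that release SREBP2 were not called either. Mbtps1, the site-1 protease, read 3.10, 3.14, 2.94 and 3.05 on the control arrays and 3.23, 3.28, 3.08 and 3.40 on the PMSG arrays, which overlapped. The difference was 0.19 (SE 0.10, limma adjusted p = 0.185; chr19:49751426-49751485). Under quantile normalization it was 0.34 and was called higher (limma adjusted p = 0.0428). Mbtps2, the site-2 protease, read -5.44, -5.29, -5.21 and -5.69 on the control arrays and -4.66, -5.56, -5.03 and -5.42 on the PMSG arrays, with a difference of 0.24 (SE 0.21, limma adjusted p = 0.397; chrX:58756963-58757022). Its mean processed signals of 24.7 and 26.6 were low, so small differences were not measurable there. A second Mbtps2 probe was well above background on 0 control and 3 PMSG arrays and was not tested.

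**Figure D3:**
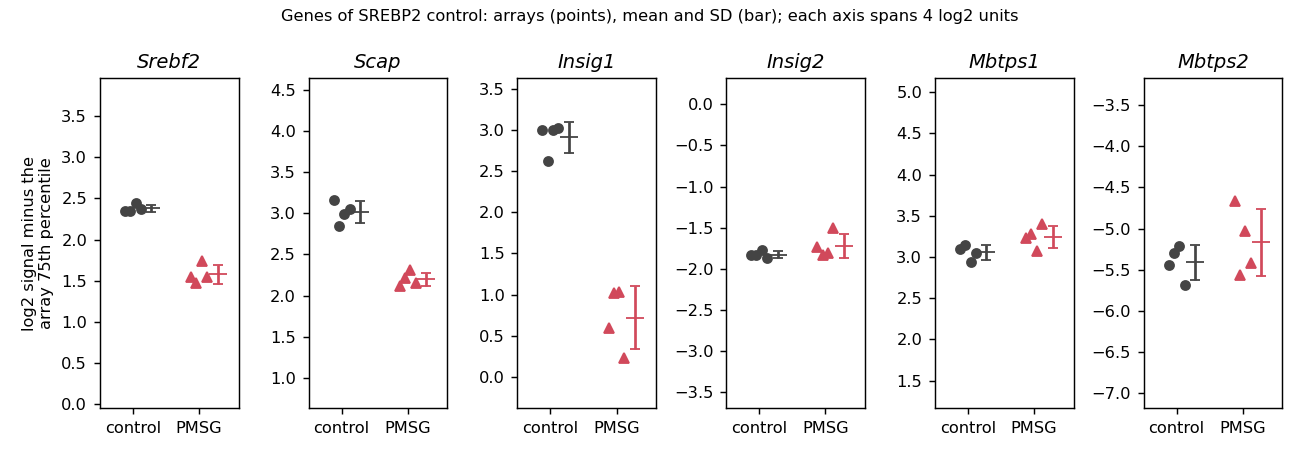
Levels of the 6 genes of SREBP2 control on each array, as log2 signal minus the array's 75th percentile, with circles for control and triangles for PMSG arrays. Horizontal ticks with bars are the mean and SD of 4 arrays, and every panel spans 4 log2 units. Srebf2, Scap and Insig1 are separated between the groups, while Insig2, Mbtps1 and Mbtps2 overlap.

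A set of 3 gene pairs were also compared within arrays, as the change of their log2 ratio between the groups. They were chosen after their values had been seen, each setting a lower gene against a related one with a small difference, so the changes are a description with no test. The ratio of Insig1 to Insig2 differed by -2.30 (SE 0.28), that of Tm7sf2 to Lbr by -2.37 (SE 0.30) and that of Fdps to Ggps1 by -2.62 (SE 0.20), each with all 4 PMSG arrays below all 4 control arrays. A changed ratio does not show that the second gene of a pair stayed level.

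Stard4, a small carrier that moves cholesterol between membranes and a known SREBP2 target, was called lower. Stard4 read 1.84, 1.71, 1.88 and 1.78 on the control arrays and 0.09, -0.09, -0.04 and -0.13 on the PMSG arrays. The groups were clearly apart, at -1.84 (SE 0.09, limma adjusted p = 2.32e-05; chr18:25638729-25638788), or 3.59-fold. A second Stard4 probe 7172 bases away gave -2.04 (SE 0.16, limma adjusted p = 1.10e-04).

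Among the 4 genes with more than 1 tested probe, Acat2 was the only one with probes of opposite sign. Its second probe is shown because it decides the sign if the brightest probe is not used:
Acat2 second probe: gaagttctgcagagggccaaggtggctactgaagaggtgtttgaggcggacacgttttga
This probe read -3.82, -3.36, -3.17 and -4.11 on the control arrays and -2.49, -3.15, -3.06 and -3.12 on the PMSG arrays. The difference was 0.66 (SE 0.24, limma adjusted p = 0.0658) and was not called. With the mean over both probes, the Acat2 difference was -0.63 (limma adjusted p = 0.0118), still called but below 2-fold. The array files place it 67227 bases from the brighter probe on chromosome 1 of rn4, while the RefSeq gene spans 18047 bases. Its mean processed signal was 85.7 in controls, and whether both probes measure 1 transcript was not tested.

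Promoters of 23 of the 27 genes were matched in RefSeq (GRCr8). The promoters of Mvd, Srebf2 and Insig2 are shown to compare an enzyme, the factor and a gene that was not called. The capitals again mark CCAAT or ATTGG:
Mvd promoter, chr19:67414925-67415224, strand -: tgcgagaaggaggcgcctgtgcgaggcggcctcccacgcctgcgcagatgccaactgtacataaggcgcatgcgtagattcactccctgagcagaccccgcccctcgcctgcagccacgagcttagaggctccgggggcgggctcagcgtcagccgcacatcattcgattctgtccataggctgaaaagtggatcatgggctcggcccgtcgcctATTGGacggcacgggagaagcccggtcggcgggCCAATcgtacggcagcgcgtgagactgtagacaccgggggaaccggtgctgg
Srebf2 promoter, chr7:115543057-115543356, strand +: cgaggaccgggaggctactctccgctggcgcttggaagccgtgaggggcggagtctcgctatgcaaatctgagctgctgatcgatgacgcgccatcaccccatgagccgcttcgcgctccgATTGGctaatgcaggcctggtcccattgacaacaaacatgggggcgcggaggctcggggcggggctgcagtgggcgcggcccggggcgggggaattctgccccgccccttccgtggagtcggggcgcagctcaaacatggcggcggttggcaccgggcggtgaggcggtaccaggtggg
Insig2 promoter, chr13:35040049-35040348, strand -: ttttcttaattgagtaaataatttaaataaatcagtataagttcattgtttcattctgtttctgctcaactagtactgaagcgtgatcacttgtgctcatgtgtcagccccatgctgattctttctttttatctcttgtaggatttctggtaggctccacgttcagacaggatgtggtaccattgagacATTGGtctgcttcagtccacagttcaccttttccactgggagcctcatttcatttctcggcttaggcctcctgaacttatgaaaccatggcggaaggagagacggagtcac
CCAAT was searched on both strands in the window of each promoter. It was found in 17 of the 23 genes (73.9%), against 37.5% of 33469 promoters in the table and 37.0% of the 11910 promoters of tested genes. Among the genes called lower it was found in 15 of 19, and among the genes not called in 2 of 4, Ggps1 and Insig2. Acat2, Cyp51, Dhcr7 and Scap were called lower without a match. Mvk and Nsdhl held 5 matches each, the most of the 23. These are matches of letters and not measured binding. The windows are set by the RefSeq start alone. Whether transcription starts there in these ovaries was not tested, so a window, such as that of Insig2, may not hold the promoter.

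The sterol regulatory element TCACNCCAC, searched on both strands, was found in 0 of the 23 promoters and in 1.12% of all promoters of the table. A shorter form that it contains, TCACNCC, was searched after this had been seen. It occurred in 5 of the 23 promoters, those of Acat2, Mvd, Cyp51, Msmo1 and Srebf2 (21.7%), against 14.6% of all promoters and 16.2% of those of tested genes. No match says only that these letters are not in the window. Neither form contains CCAAT.

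The counts of this and the next lists stand beside 16.6% of all tested probes called lower and 34.2% called in either direction. Genes that feed the pathway included more lower than higher calls. Of 9 genes of acetyl-CoA supply and ketone bodies, 6 were called lower and 1 higher, with a median of -0.73. Bdh1, which interconverts ketone bodies, differed by -1.71 (SE 0.13, limma adjusted p = 1.11e-04). Acss2, the cytosolic enzyme that activates acetate, differed by -1.57 (SE 0.15), while Acss1, its mitochondrial counterpart, was higher by 1.25 (SE 0.10). Of 8 tested genes that supply NADPH and electrons, 6 were called lower and 0 higher, with a median of -0.96. Idh1, cytosolic isocitrate dehydrogenase, differed by -2.37 (SE 0.17), and Me1, malic enzyme, by -1.66 (SE 0.12).

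Genes that use farnesyl and geranylgeranyl diphosphate for other products differed little. Of 19 tested genes, 3 were called lower and 0 higher, with a median of -0.12. That count lower is close to the share over all tested probes, 16.6%. Fnta, a subunit shared by 2 prenyltransferases, differed by -0.56 (SE 0.11), Zmpste24, a protease of prenylated proteins, by -0.47 (SE 0.14), and Pggt1b, a subunit of a geranylgeranyl transferase, by -0.41 (SE 0.12). None of the 19 differed by 2-fold.

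The machinery that degrades sterol enzymes and other sterol sensors of the endoplasmic reticulum gave 5 lower and 0 higher calls among 11 tested genes, with a median of -0.28. Vcp, the ATPase that extracts proteins from the membrane, differed by -0.91 (SE 0.09), Pgrmc1, a heme-binding membrane protein, by -0.77 (SE 0.14), and Ufd1, a partner of Vcp, by -0.51 (SE 0.09). No gene of this list reached 2-fold.

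Among 12 further SREBP target genes, 9 were called lower and 0 higher, with a median of -0.63. Fads1, a fatty acid desaturase, differed by -1.35 (SE 0.10), and Tmem97, a membrane protein of sterol handling, by -1.21 (SE 0.12). Other fatty acid genes of the list, Scd, Fads2 and Elovl6, were called lower, at -0.76 (SE 0.11), -0.72 (SE 0.17) and -0.67 (SE 0.10). Fasn and Acaca, the enzymes of fatty acid synthesis, were not called, at 0.51 (SE 0.33) and -0.04 (SE 0.39). The Acaca probe was dim, with mean levels of -5.51 on control and -5.55 on PMSG arrays, so small differences were not measurable there. Srebf1, which encodes SREBP1, was not called either, at -0.32 (SE 0.12). Of 10 genes of the oxysterol receptor LXR and of oxysterol synthesis, 3 were called lower and 4 higher, with a median of 0.40. Mylip, an LXR target that degrades lipoprotein receptors, was higher by 1.91 (SE 0.17). Lpcat3, another LXR target, and Ch25h, which makes an oxysterol, differed by -1.86 (SE 0.14) and -1.59 (SE 0.11). Together 37 of 69 tested genes of these 6 lists were called, 32 lower and 5 higher. Over all tested probes 34.2% were called in either direction.

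**Figure D4:**
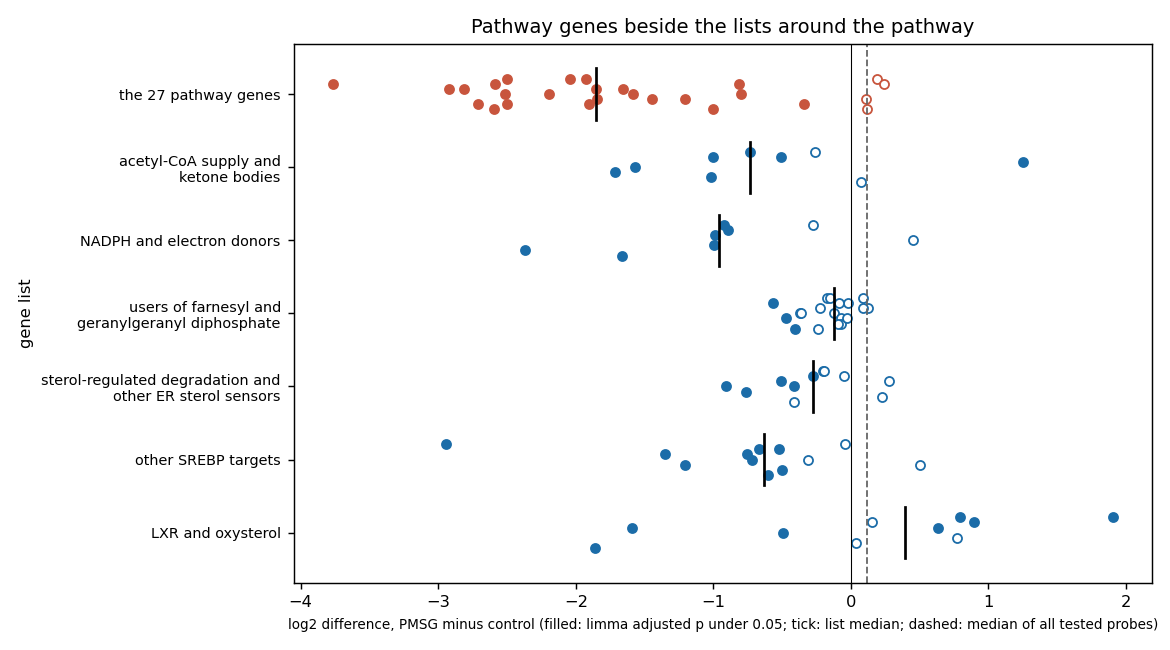
Differences of the 27 pathway genes and of the 6 lists around the pathway, as log2 level of PMSG minus control arrays, with 1 point per gene. Filled points have a limma adjusted p under 0.05, ticks are list medians and the dashed line is the median of all tested probes. The tick of the 27 genes lies at -1.85, and those of the other lists between -0.96 and 0.40.

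All 6 of 6 luteal and steroidogenic markers were called lower, with a median of -2.45, and their mean level ran from 2.53 to 2.77 on control arrays and from -1.49 to -0.40 on PMSG arrays. Akr1c18, a progesterone-degrading enzyme of the corpus luteum, was well above background on 4 control arrays but on 1 of 4 PMSG arrays. It was tested only because of the control arrays. Its difference of -8.47 rests on PMSG values near background and weighs on the mean level of the list. The other 5 markers were well above background on all 8 arrays. Scarb1, the receptor that takes up cholesterol from high-density lipoprotein, differed by -1.83 (SE 0.13, limma adjusted p = 7.51e-05). Of the adrenal cortex markers, 2 of 4 tested were lower, Mrap at -3.42 and Cyp11b1 at -1.15. Their mean level ran from -2.12 to -1.77 on control arrays and from -3.83 to -2.43 on PMSG arrays, while Cyp21a1 was not called and the defining marker Cyp11b2 was well above background on 0 control and 1 PMSG array and was not tested.

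Of 3 liver markers, 2 were lower, with ranges of mean level that overlapped, from -4.65 to -2.71 on control and from -5.34 to -4.58 on PMSG arrays. Of 7 granulosa markers, 2 were lower and 2 higher (control 0.75 to 1.48, PMSG 1.11 to 1.51), and Foxl2, a defining granulosa factor, was not called at 0.19 (SE 0.15). All 8 oocyte markers were higher (control -2.79 to -1.85, PMSG -0.90 to -0.10), as were all 4 oviduct markers (control -3.67 to -2.77, PMSG -1.10 to -0.79). Of these, the oocyte marker Ddx4 and the oviduct marker Muc1 were well above background on 3 control arrays. The oviduct marker Dnah5 was so on 2. Their control values therefore lie partly near background. Markers of theca (2 of 4), leukocytes (4 of 5) and fibroblasts (3 of 6) included higher calls, those of endothelium 3 lower and 1 higher of 6, of red blood cells 1 lower of 3, and of adipocytes 0 of 6. Beside these marker counts, 4206 of all 25303 tested probes were called lower and 4452 higher. The part of these cell types in the differences of the 27 genes was not tested.

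All 8 arrays shared 1 slide and 1 scan date, and the groups lay partly in different columns of the slide. Column 1 held PMSG arrays and column 2 held control arrays, while columns 3 and 4 each held 1 of either label. Within row 1 and within row 2, with 2 arrays per group, 23 of the 27 genes were lower in PMSG arrays, with medians of -1.80 and -1.88. Within columns 3 and 4, with 1 array per group, 24 genes were lower in each, with medians of -1.76 and -1.88. Over all arrays the median was -1.85. The part of slide position in the differences was not tested beyond these values.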

How the data were processed

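Spot intensity came from Agilent Feature Extraction 11.5.1.1 and probe positions were on build rn4, per the file headers. A table of log2 values deposited by the authors matched signals scaled to the 75th percentile of each array (correlation of at least 0.998 with the own array, column medians from -3.21 to -2.82, no centring of probes). Columns of that table not used numbered 0. From the scanner files, 58717 non-control spots per array were used without outlier flags, and log2 processed signals of a probe's spots were averaged and scaled by subtracting the array's 75th percentile. Probes well above background on at least 4 of 8 arrays were tested with limma 3.58.1 (functions lmFit and eBayes, R 4.3.3) without covariates, adjusted by Benjamini-Hochberg over all tested probes. The procedure was tested on simulated data. Groups came from the sample titles.

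The 27 genes and all lists were chosen with earlier results of these data known. Every gene of the 27 is named. Values of each array are given for the 3 genes of each stage with the largest difference and for each gene not called. From each of the 6 lists around the pathway the 3 genes with the largest difference among those called are named, of which 2 are not reported here, and markers and further genes named beside them were chosen after their values were seen. Other genes of the pathway were not analysed here, nor were the exon or UTR positions of the probes. RefSeq (GRCr8) was used for names, gene lengths and promoters. Of 22 alternatives, 21 were planned and 1, the slide column as a block, was added after seeing the data. Whether replicate numbers pair the samples could not be decided, and the main fit did not pair them.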

Additional observations from a re-analysis of the deposited data

Results flagged for a closer look

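In 98 groups of 4 arrays, formed by the tested probes of the 27 genes and by the 3 genes with the largest called difference in each list around the pathway, 5 had 1 array apart from the other 3. Chance gives about 1 in 20 groups, here 4.9. The gap to the nearest array is given as a share of the group's range. For Insig1 control array 2 stood at 2.63 and the other controls between 2.99 and 3.02 (gap 0.946). For Hsd17b7 the same array stood at 2.76 and the others between 2.13 and 2.18 (gap 0.909). Control array 1 was apart for Pggt1b (gap 0.939), at -4.12 against -3.91 to -3.90. PMSG array 3 was apart for Pgrmc1 (gap 0.840), at 1.47 against 1.88 to 1.96. PMSG array 1 was apart for the second Acat2 probe (gap 0.868), at -2.49 against -3.15 to -3.06.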

How the results depend on the processing

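Over the 22 alternatives, between 22 and 24 of the 27 genes were called and 19 or 20 were at least 2-fold lower. Genes other than Acat2, Lbr and Mbtps1 kept their side of the threshold under each alternative run. Lbr lost its call under normexp correction (-0.10, adjusted p = 0.440), trended and robust variances (0.124), the slide column as a block (-0.43, 0.145) and 5 of the 8 fits without 1 array. Acat2 reversed with its second brightest probe (0.66, adjusted p = 0.0658) and was -0.63 (0.0118), below 2-fold, as the mean over its probes. Pmvk was below 2-fold in the other settings with 19. Mbtps1 was called higher under quantile normalization (0.34, adjusted p = 0.0428). The median of the 27 genes was -2.02 with median centring and -1.79 with normexp correction, and ran from -1.89 to -1.83 without 1 array. The slide column as a block lowered the probes called from 8658 to 2983 and the genes called in the other lists from 37 to 21. Columns 1 and 2 each held a single label. That fit therefore compares the groups only within columns 3 and 4, with 1 array per group in each. It thus rests on fewer arrays than the main fit. The causes were not tested. Without 1 array the probes called ran from 6552 to 11382, the highest without PMSG array 4, and the other-list genes from 30 to 40. Deviations of same-numbered samples from their group means correlated at 0.0444, 0.0361, 0.183 and -0.0192. Samples of different numbers were not compared, so these values cannot decide whether the numbers pair the samples. With the replicate block 7346 probes, 22 of the 27 genes and 33 other-list genes were called, and Lbr lost its call (adjusted p = 0.0588). Dim probes limit Mbtps2 and Lbr.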
